A study of Mus musculus with 13 samples.

Results

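Base excision repair and mismatch repair remove single damaged or wrongly paired bases from DNA. In base excision repair a DNA glycosylase cuts the altered base from its sugar, an AP endonuclease opens the strand at the empty site, and a polymerase and a ligase close the gap. In mismatch repair MutS proteins recognise a mispaired base or a small loop, MutL proteins act next, and DNA polymerase delta refills the excised stretch. Polymerase delta is also the replicative polymerase of the lagging strand, so its subunits belong to both repair and S phase.

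The RNA levels of 29 genes of these pathways were followed in mouse embryonic fibroblasts (MEFs) under 4 conditions. The genes were a list of known repair factors: 11 glycosylases, 2 AP endonucleases, 3 gap-filling and ligation genes, 4 strand-break genes, 4 polymerase delta subunits and 5 MutS and MutL genes. All 29 were found among the 57010 genes of each library, and all 29 were among the 15034 genes that passed the filter on low counts. The cells were primary wild-type (WT) MEFs, grown in 3% oxygen from embryos at mid-gestation without viscera, lung and heart. Control MEFs received vehicle. Senescent MEFs had 2 μM etoposide, a topoisomerase II poison that breaks DNA, for 24 h and 5 further days of culture. The remaining MEFs were made senescent the same way and then given Fucoidan-FV, a sulfated polysaccharide of brown seaweed, at 100 or 300 μg/mL, with RNA taken after 12 h. The sample titles spell the agent "Eo" for the untreated senescent MEFs and "Eto" for the treated ones.

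Each condition had mice 4, 5 and 6 (n = 3). Control mouse 5 had libraries 5(1) and 5(2), so 13 libraries made 12 samples. The counts of these libraries were summed, and their TPM values were averaged. Library totals ran from 22782536 to 31278750 counts. Levels are given as CPM, the counts scaled to a common library size. TPM, which also corrects for transcript length, is given only where genes or the measures themselves are set beside each other. All 10 fibroblast markers were counted in every condition, at 10608 to 16660 CPM summed per sample. The 8 macrophage markers summed to 0.564 to 4.59 CPM in control and 2.91 to 17.7 CPM in senescent MEFs, and to 6.32 to 14.98 and 4.46 to 11.8 CPM at the lower and the higher dose of Fucoidan-FV. The endothelial list was at 1.32 to 2.04 CPM in control, 1.47 to 3.30 CPM in senescent, 5.92 to 11.7 CPM at 100 μg/mL and 5.23 to 8.36 CPM at 300 μg/mL, so both doses lay above the senescent samples without overlap. Of its 4 tested genes, 1 passed against senescent MEFs at 100 μg/mL, Tek, the angiopoietin receptor (higher, edgeR adjusted p = 0.0446). Epithelial markers were at or below 2.04 CPM in every sample. The skeletal muscle list was at 104 to 196 CPM in control and 149 to 360 CPM in senescent MEFs. It was at 92.0 to 148 and 67.8 to 119 CPM at the lower and the higher dose. Of its markers, Ckm was at 0 counts in control, Myog in senescent MEFs, and Myod1 and Ckm at 100 μg/mL. The part of these cells in the results was not tested. A list of 20 proliferation genes, written out for this comparison, fell in senescence in 20 of 20 cases, with a median log2 change of −3.80, and its summed level went from 1408 to 1931 CPM in control to 130 to 195 CPM in senescent MEFs. In the same comparison 20 of the 29 repair genes lay below 0 and 9 above. The part of the proliferation list in these changes was not tested. In bulk RNA, fewer cycling cells and less RNA per cell cannot be told apart.

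Per transcript length, the control MEFs held the most RNA of Apex1, the main AP endonuclease, at 179.9 ± 22.5 TPM (SD, n = 3). Tdg, a glycosylase for thymine and for oxidised methylcytosine, followed at 64.4 ± 1.89 TPM, the small polymerase subunit Pold4 at 63.4 ± 1.04 TPM and the subunit Pold2 at 57.3 ± 26.2 TPM. Tdg, Pold4 and Pold2 did not differ beyond their spread, whereas all control values of Apex1 (155 to 200 TPM) lay above those of Tdg (62.3 to 65.9 TPM). The lowest were Mutyh, which removes adenine opposite 8-oxoguanine, at 2.37 ± 0.902 TPM and Neil2, a glycosylase of oxidised bases, at 0.122 ± 0.0825 TPM. Ung, the main uracil glycosylase, stood at rank 13 of 29 in control and at rank 24 in senescent MEFs. Pold4 went from rank 3 to rank 2.

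**Figure D1:**
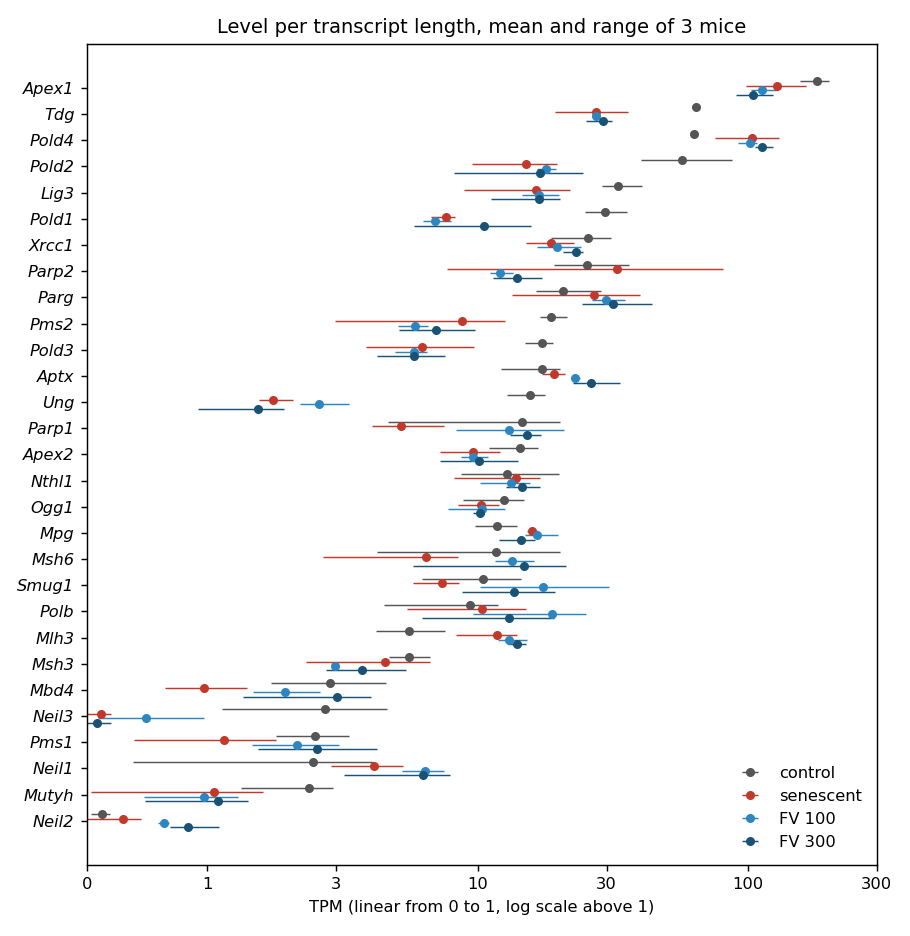
Mean TPM (points) and range of 3 mice (bars) of the 29 genes in control, senescent and Fucoidan-FV (FV) treated senescent MEFs, ordered by the control mean; the axis is linear up to 1 TPM and logarithmic above. Apex1 is highest and Neil2 lowest in control MEFs, and the senescent bar of Parp2 reaches 81.1 TPM in a single sample.

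Promoter sequence was examined for 26 of the 29 genes with an entry in the RefSeq promoter set (250 bases before to 50 bases after the start, assembly GRCm38.p6). The letters TTTCGCGC, TTTGGCGC, TTTCCCGC or TTTGCCGC, the form of site that E2F factors of the cell cycle bind, were looked for on both strands. They were present for 5 of 26 genes, Pold1, Pold3, Msh3, Msh6 and Nthl1, and for 3.29% of protein-coding genes with a promoter in the set. The stretches are shown because polymerase delta subunits were among the genes that fell most. Each was matched by its letters to a single place in the region of its gene in GRCm39, the build of the counts, and the capitals mark the matched letters; where the match is on the opposite strand, the capitals are its reverse complement.
Pold1 (chr7:44198190-44198219, minus strand, untranslated exon sequence, positions 40 to 47 after the start): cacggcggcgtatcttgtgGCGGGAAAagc
Pold3 (chr7:99770674-99770703, minus strand, untranslated exon sequence, positions 18 to 25): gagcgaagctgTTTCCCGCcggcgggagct
Msh6 (chr17:88282482-88282511, plus strand, untranslated exon sequence, positions 16 to 23): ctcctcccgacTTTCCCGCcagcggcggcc
Nthl1 (chr17:24851513-24851542, plus strand, upstream of the gene, positions −132 to −125): ccgcgcgcgccTTTCGCGCgcaggtcctcc
Msh3 (chr13:92491693-92491722, minus strand, upstream of the gene, positions −202 to −191, where a match on each strand overlaps): gccgtcaagTTTGGCGCGAAAtcgcagccc
Of the 7 genes that fell in senescence, Pold1 and Pold3 held such a site, whereas Ung, Tdg, Lig3, Pold2 and Pms2 had none of these letters in the window. Pold2 was the only gene of the 26 with the CHR element TTTGAA (18.47% of protein-coding genes). CCAAT was found for 16 genes (42.32% of protein-coding genes), GGGCGG for 21 (49.23%) and TGACG for 12 (26.24%). These matches are letters in a window and were not tested as binding sites.

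Senescent MEFs were set beside control MEFs to ask how etoposide-induced senescence had altered the repair genes before any treatment. Of the 29 genes, 7 fell and 0 rose at an adjusted p under 0.05 (edgeR quasi-likelihood test, Benjamini-Hochberg over all genes tested), against 5.63% of all genes lower and 6.11% higher. Another tool, DESeq2, called 11 lower and 1 higher, against 7.99% and 9.75% of all genes: the same 7, Neil3, Mbd4, Parp1 and Parp2 were lower and Mlh3 was higher. The genes that fell were the glycosylases Ung and Tdg, the ligase Lig3, the polymerase subunits Pold1, Pold2 and Pold3, and the MutL gene Pms2. The median log2 change was −0.86 over the 29 genes and 0.07 over all genes tested, with 20 of the 29 below 0. At an unadjusted p under 0.05 stood 15 of the 29, against 25.4% of all genes.

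**Figure D2:**
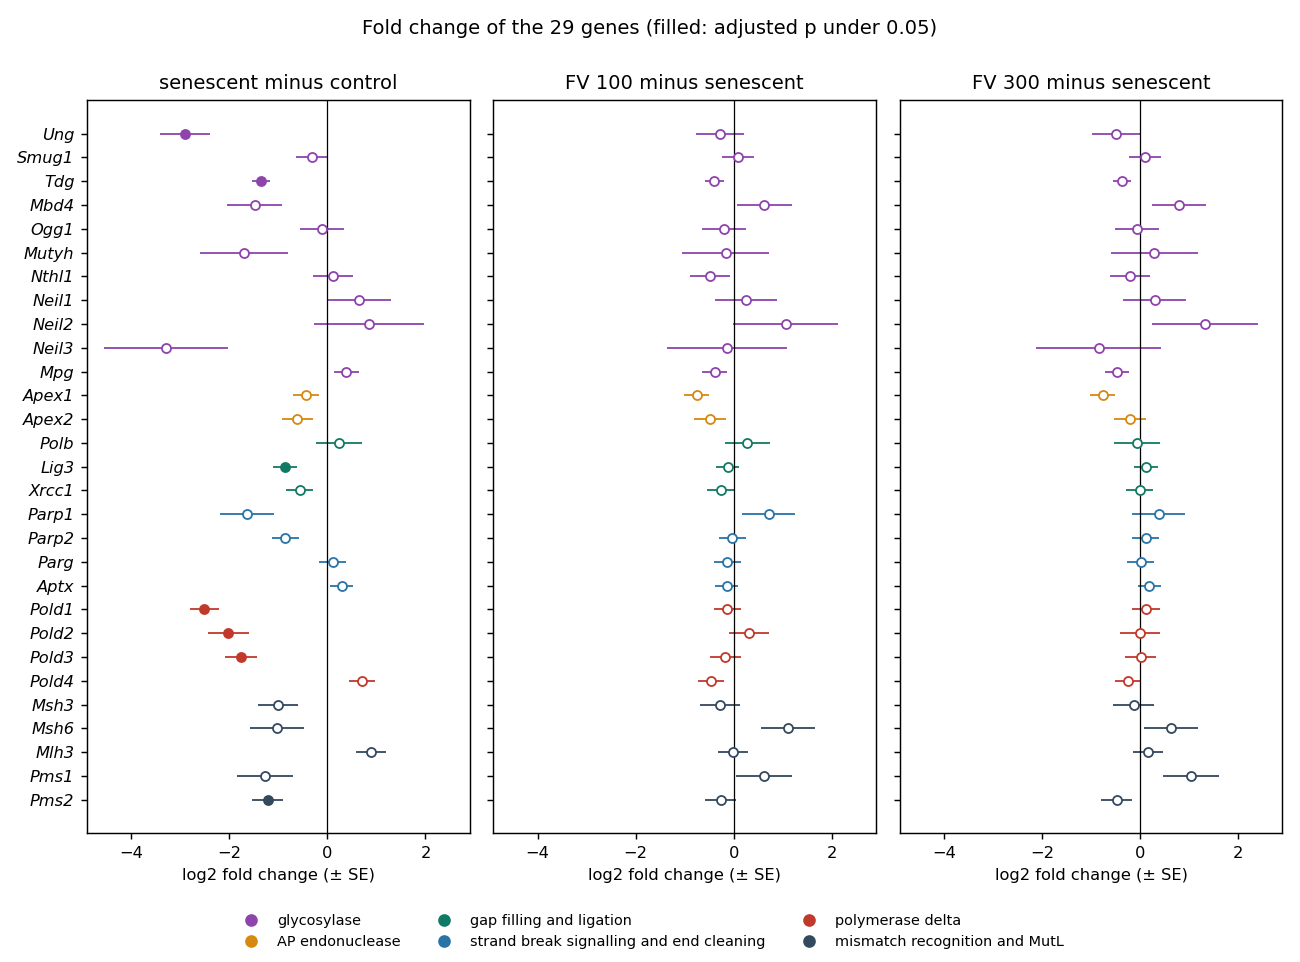
Log2 fold change ± SE (edgeR) of each gene, by role, for senescent minus control MEFs and for each dose of Fucoidan-FV (FV, μg/mL) minus senescent MEFs; filled points have an adjusted p under 0.05. Only the first panel has filled points, 7 of them, all below 0.

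Among the 11 glycosylases, Ung fell the most of those that passed. Its level was 19.5, 15.7 and 17.9 CPM in control mice 4, 5 and 6, and 1.98, 2.03 and 3.09 CPM in senescent MEFs of the same mice. The groups did not overlap, and the level was 7.46-fold lower (log2 −2.90 ± 0.51 SE, edgeR adjusted p = 0.00266). Tdg was at 122, 127 and 132 CPM in control and at 43.4, 60.1 and 45.9 CPM in senescent MEFs. That is a 2.55-fold fall with no overlap (log2 −1.35 ± 0.19 SE, edgeR adjusted p = 0.000576). The controls had little spread once libraries 5(1) and 5(2) of mouse 5, at 136.8 and 93.3 CPM, were summed. Of the exonic bases of Tdg, 58.8% lie opposite an exon on the other strand, and RSEM gave it fractional counts in 12 of 13 libraries, so its counts may share reads with other loci.

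Neil3, a glycosylase of single-stranded DNA made mainly by dividing cells, had 1.83, 1.61 and 3.01 CPM in control mice 4, 5 and 6. In senescent MEFs it had 0, 0.388 and 0.272 CPM, where a count of 0 in mouse 4 allows up to 0.0959 CPM (3 counts; counting error only). The groups did not overlap, and the senescent libraries held 17 counts in all. The difference did not pass with edgeR (log2 −3.28 ± 1.26 SE, adjusted p = 0.118) and passed with DESeq2 (log2 −3.33, adjusted p = 0.0298). Mbd4, which removes thymine at methylated CpG sites, was lower in 3 of 3 mice, at 1.81 ± 0.461 against 5.09 ± 3.53 CPM (SD, n = 3; edgeR adjusted p = 0.111, DESeq2 adjusted p = 0.0414). Mutyh went from 2.59 ± 0.984 to 0.792 ± 0.778 CPM with overlap between the groups.

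The other 6 glycosylases had log2 differences between −0.32 and 0.85, and none passed. Ogg1, which removes 8-oxoguanine, was at 9.50 ± 4.14 CPM in control and 8.78 ± 5.18 CPM in senescent MEFs (log2 −0.11, 95% interval −1.08 to 0.86). Nthl1, for oxidised pyrimidines, was at 7.26 ± 3.16 and 7.83 ± 3.18 CPM. Smug1, a second uracil glycosylase, was at 23.1 ± 11.6 and 18.4 ± 1.41 CPM (log2 −0.32, 95% interval −1.02 to 0.38). The values of Ung and Smug1, which share the uracil substrate, thus lay apart, although the difference between their changes was not tested. Mpg, for alkylated purines, was higher in 3 of 3 senescent samples, at 16.8 ± 2.23 against 12.9 ± 2.16 CPM, without passing (edgeR adjusted p = 0.377). Of the exonic bases of Mpg, 36.3% lie opposite an exon on the other strand. RSEM gave Mpg fractional counts in 13 of 13 libraries, so its counts may share reads with other loci. Neil1 and Neil2 overlapped between the groups, at 2.44 ± 1.84 against 3.86 ± 1.45 CPM and 0.112 ± 0.0617 against 0.207 ± 0.180 CPM.

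**Figure D3:**
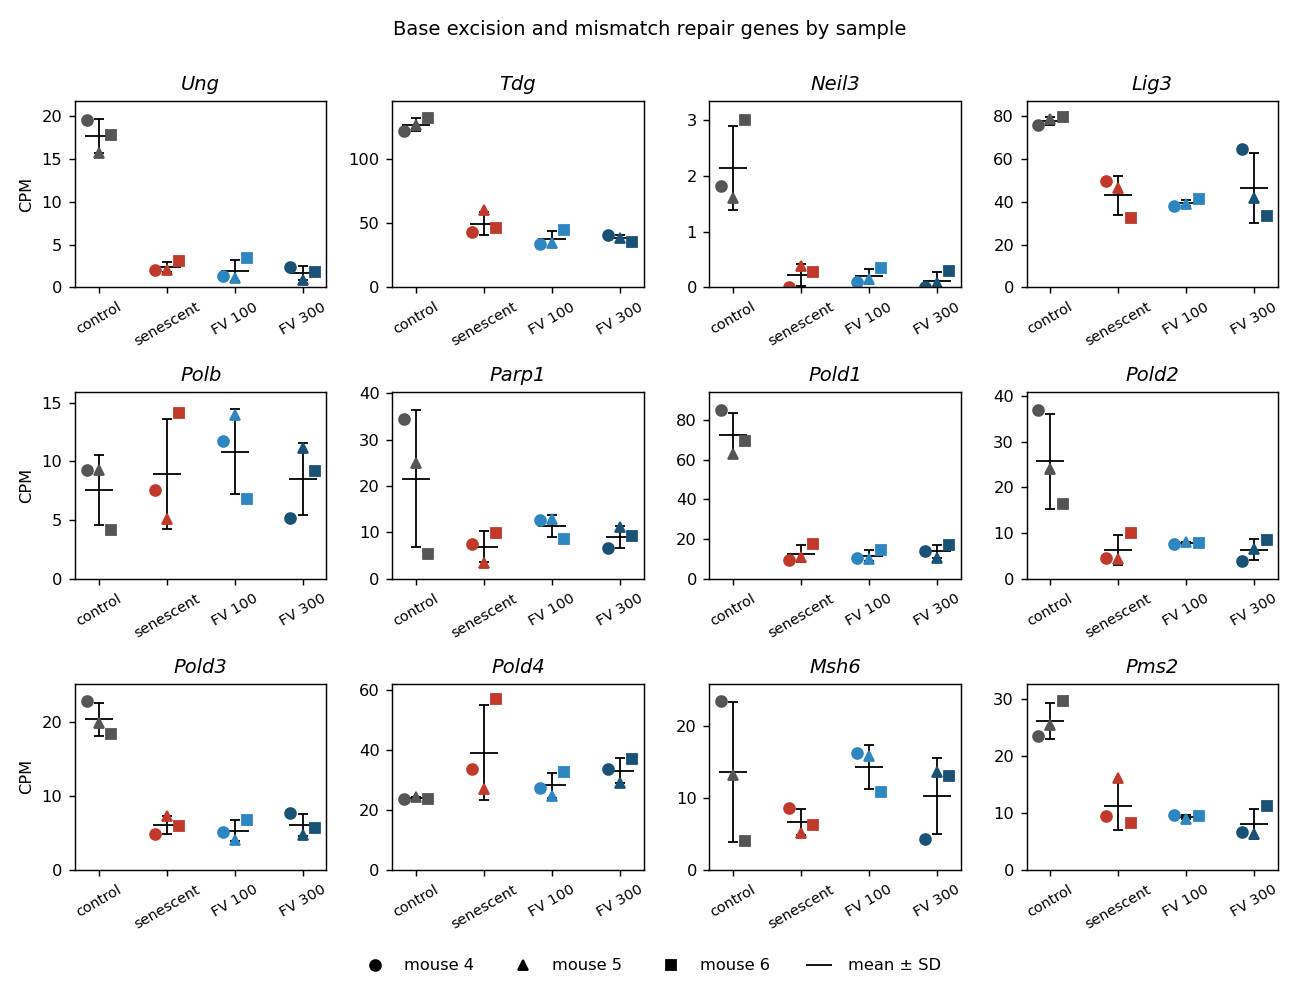
CPM of 12 genes in each sample (circle mouse 4, triangle mouse 5, square mouse 6) with mean ± SD of 3 mice, in control, senescent and Fucoidan-FV (FV, μg/mL) treated senescent MEFs. Ung, Tdg, Lig3, Pold1, Pold2, Pold3 and Pms2 lie lower in all senescent and treated samples than in all controls, whereas the control values of Parp1 and Msh6 span 5.36 to 34.3 and 4.09 to 23.4 CPM.

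The AP endonucleases did not pass in the edgeR test over all samples. Apex1 was at 127, 118 and 103 CPM in control and at 65.8, 62.0 and 130 CPM in senescent mice 4, 5 and 6, so senescent mouse 6 alone lay above the controls. Without that sample Apex1 was lower in senescent MEFs (log2 −0.85, edgeR adjusted p = 0.00277), and with it the log2 difference was −0.43 (edgeR adjusted p = 0.335). It also passed with offsets for transcript structure, length and GC content (log2 −0.63, edgeR adjusted p = 0.0207; with the mouse as a block log2 −0.65, edgeR adjusted p = 0.0223). Of the exonic bases of Apex1, 62.1% lie opposite an exon of the other strand. RSEM gave Apex1 fractional counts in 13 of 13 libraries, so its counts may share reads with other loci. Apex2, the second AP endonuclease, was lower in 3 of 3 mice, at 12.6 ± 2.58 against 19.2 ± 3.81 CPM (edgeR adjusted p = 0.262).

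In gap filling and ligation, Lig3 fell and its partners did not pass. Lig3, the ligase that seals the gap together with the scaffold Xrcc1, was at 75.7, 78.5 and 79.4 CPM in control and at 49.9, 46.6 and 32.6 CPM in senescent MEFs. It was 1.81-fold lower with no overlap (log2 −0.86 ± 0.24 SE, edgeR adjusted p = 0.0369), and the call stood in 13 of 23 alternatives. It was lost without any 1 of control mice 4, 5 and 6, senescent mice 5 and 6, mice 4 and 5 at 100 μg/mL and mouse 5 at 300 μg/mL, with edgeR adjusted p up to 0.0794. The call was also lost with library 5(2) alone for control mouse 5 (edgeR adjusted p = 0.0639). A fit of only the senescent and control samples lost it as well (edgeR adjusted p = 0.0883). Of the exonic bases of Lig3, 25.3% lie opposite an exon on the other strand. RSEM gave Lig3 fractional counts in 12 of 13 libraries, so its counts may also share reads with other loci. Xrcc1 was at 40.1 ± 8.78 and 27.1 ± 6.12 CPM (edgeR adjusted p = 0.227). Polb, the polymerase that inserts the missing base, was at 9.31, 9.29 and 4.14 CPM in control and at 7.54, 5.13 and 14.1 CPM in senescent MEFs, with the groups overlapping (log2 0.24, 95% interval −0.77 to 1.24).

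None of the 4 strand-break genes passed in the edgeR test over all samples, and DESeq2 called Parp1 and Parp2 lower. Parp1, which senses broken strands and builds poly(ADP-ribose), was at 34.3, 24.9 and 5.36 CPM in control mice 4, 5 and 6 and at 7.45, 3.45 and 9.89 CPM in senescent MEFs. Control mouse 6 lay within the senescent range, and the difference did not pass (log2 −1.63 ± 0.55 SE, edgeR adjusted p = 0.0757). It passed in 4 of 23 alternatives: without that sample (log2 −2.07, edgeR adjusted p = 0.0112), with DESeq2 (log2 −1.62, adjusted p = 0.0209), without the filter on low counts (log2 −1.66, edgeR adjusted p = 0.00359) and with the offsets (log2 −1.51, edgeR adjusted p = 0.0454). Parp2, a related enzyme, was lower in 3 of 3 mice with little spread, at 21.1 ± 2.18 against 11.6 ± 1.01 CPM (edgeR adjusted p = 0.0620), and it passed in 6 of 23 alternatives, DESeq2 among them (log2 −0.87, adjusted p = 0.0106). Parg, which removes poly(ADP-ribose), was at 49.0 ± 18.8 and 52.9 ± 14.9 CPM, and Aptx, which cleans blocked strand ends, at 23.1 ± 4.44 and 28.2 ± 2.83 CPM.

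Polymerase delta was the role with the most calls, 3 of 4 subunits. Pold1, the catalytic subunit, was at 84.8, 62.9 and 69.2 CPM in control and at 9.49, 11.2 and 17.4 CPM in senescent MEFs, a 5.70-fold fall (log2 −2.51 ± 0.30 SE, edgeR adjusted p = 0.000202). Pold2 went from 36.8, 23.9 and 16.3 CPM to 4.63, 4.27 and 10.1 CPM (4.06-fold lower, log2 −2.02 ± 0.42 SE, edgeR adjusted p = 0.00739). Pold3 went from 22.8, 19.8 and 18.4 CPM to 4.83, 7.24 and 6.01 CPM (3.38-fold lower, log2 −1.76 ± 0.32 SE, edgeR adjusted p = 0.00341). The senescent and control values of these 3 subunits did not overlap. The accessory subunit Pold4 lay on the other side, at 23.7, 24.3 and 23.7 CPM in control and at 33.7, 26.9 and 57.1 CPM in senescent MEFs. It was higher in 3 of 3 mice without passing (log2 0.71, 95% interval 0.14 to 1.29, edgeR adjusted p = 0.106).

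Among the MutS and MutL genes, Pms2, the endonuclease subunit of the main MutL complex, went from 23.5, 25.4 and 29.7 CPM to 9.55, 16.1 and 8.19 CPM. The groups did not overlap and the level was 2.32-fold lower (log2 −1.21 ± 0.32 SE, edgeR adjusted p = 0.0252), a call that stood in 18 of 23 alternatives. It was lost without control mouse 5, control mouse 6 or senescent mouse 4 (edgeR adjusted p up to 0.0833). The call was also lost with library 5(2) alone for control mouse 5 (edgeR adjusted p = 0.0782). A fit of only the senescent and control samples lost it as well (edgeR adjusted p = 0.0827). Msh6, the MutS subunit for base mismatches, was at 23.4, 13.2 and 4.09 CPM in control and at 8.63, 5.09 and 6.25 CPM in senescent MEFs. Control mouse 6 was the lowest of these samples, and the difference did not pass (log2 −1.03, 95% interval −2.21 to 0.16, edgeR adjusted p = 0.270). Msh3, the subunit for larger loops, and Pms1, a further MutL gene, were lower in 3 of 3 mice, at a mean of 6.47 ± 2.33 against 13.03 ± 1.31 CPM and 1.92 ± 0.913 against 4.66 ± 1.37 CPM, without passing (edgeR adjusted p = 0.142 and 0.182). Mlh3, a MutL gene known for its work in meiosis, was at 16.998, 19.2 and 26.9 CPM in control and at 46.1, 49.2 and 21.1 CPM in senescent MEFs (edgeR adjusted p = 0.0838). Senescent mouse 6 was the sample within the control range, and without it Mlh3 was higher (log2 1.18, edgeR adjusted p = 0.00303). Mlh3 passed in 6 of 23 alternatives, the others being DESeq2 (log2 0.87, adjusted p = 0.0478), the offsets (log2 0.97, edgeR adjusted p = 0.00166), the offsets with the mouse block (edgeR adjusted p = 0.00367), separate libraries of control mouse 5 (edgeR adjusted p = 0.0452) and the fit without control mouse 6 (edgeR adjusted p = 0.0478).

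Partner genes of both pathways were counted from a list of 30, of which 28 were tested. In senescent MEFs 12 fell and 1 rose, against 5.63% of all genes lower and 6.11% higher. Exo1, the exonuclease of mismatch excision, fell from 9.31 ± 3.96 to 0.241 ± 0.242 CPM (log2 −5.21 ± 0.88 SE, edgeR adjusted p = 0.00207). Pole, the catalytic subunit of polymerase epsilon, fell from 45.0 ± 14.5 to 3.45 ± 1.47 CPM (log2 −3.70), and its second subunit Pole2 from 13.4 ± 4.73 to 1.44 ± 0.329 CPM (log2 −3.21). Parp3, a PARP family member active at double-strand breaks, was the one that rose, from 83.6 ± 4.89 to 151.5 ± 20.3 CPM (log2 0.86 ± 0.16 SE, edgeR adjusted p = 0.00424).

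Each dose of Fucoidan-FV was compared with untreated senescent MEFs to ask whether treatment altered the repair genes. At 100 μg/mL, 0 of the 29 genes passed with edgeR, against 1.14% of all genes higher and 2.89% lower, and 0 with DESeq2, against 9.23% in either direction. At 300 μg/mL the count was again 0 with either tool, against 0.778% higher and 1.12% lower with edgeR and 6.23% with DESeq2. At an unadjusted p under 0.05 there was 1 gene of 29 at each dose, Apex1, against 19.8% of all genes at the lower and 15.3% at the higher dose. The proliferation list stood at 88.6 to 108.8 CPM at 100 μg/mL and 79.0 to 118 CPM at 300 μg/mL, below the 130 to 195 CPM of senescent MEFs. Of its 20 genes, 17 lay below 0 at the lower dose and 20 at the higher, with median log2 differences of −0.61 and −0.68. With edgeR 1 passed as lower at 100 μg/mL and 0 at 300 μg/mL, against 2.89% and 1.12% of all genes. The part of this list in the results was not tested. The median log2 difference of the 29 genes was −0.14 at 100 μg/mL and 0.01 at 300 μg/mL, against −0.02 and 0.0003 over all genes tested. A p that misses the threshold does not show that the levels were equal, and the intervals of the genes that fell in senescence give what the data allow.

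None of the 7 genes that had fallen in senescence passed against senescent MEFs. Ung was at 1.35, 1.14 and 3.39 CPM at 100 μg/mL and at 2.40, 0.818 and 1.82 CPM at 300 μg/mL. Mouse 6 at 100 μg/mL lay above the senescent samples and the other treated samples lay within or below them. The log2 difference from senescent MEFs was −0.27 (95% interval −1.33 to 0.78) and −0.49 (−1.55 to 0.57). Tdg was at 34.2, 34.4 and 45.1 CPM and at 41.2, 38.6 and 35.7 CPM, with log2 differences of −0.39 (95% interval −0.80 to 0.01) and −0.37 (−0.78 to 0.03).

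Lig3 was at 38.1, 38.9 and 41.2 CPM at 100 μg/mL and at 64.6, 41.7 and 33.2 CPM at 300 μg/mL, where mouse 4 stood above the rest. Its 95% intervals against senescent MEFs ran from −0.65 to 0.40 and from −0.41 to 0.63. Pold1 was at 10.2, 9.96 and 14.6 CPM and at 13.8, 10.6 and 16.9 CPM, which overlapped the senescent samples, with intervals from −0.74 to 0.48 and from −0.49 to 0.73. A rise as large as its log2 change of −2.51 in senescence lies outside both intervals.

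Pold2 was at 7.61, 7.95 and 7.85 CPM and at 3.92, 6.51 and 8.50 CPM. Pold3 was at 5.20, 4.01 and 6.82 CPM and at 7.75, 4.77 and 5.68 CPM. Pms2 was at 9.70, 9.01 and 9.41 CPM and at 6.75, 6.37 and 11.2 CPM. For these 3 genes, every treated sample was below every control sample, and the treated and senescent values overlapped. The 95% intervals of the log2 difference from senescent MEFs were −0.58 to 1.19 and −0.89 to 0.88 for Pold2, −0.85 to 0.51 and −0.67 to 0.69 for Pold3, and −0.95 to 0.41 and −1.16 to 0.20 for Pms2. Pold4 was at 27.4, 24.8 and 32.7 CPM at 100 μg/mL and at 33.6, 28.9 and 37.1 CPM at 300 μg/mL, within or below the senescent range. Neil3 was at 0.0939, 0.151 and 0.346 CPM and at 0, 0.0711 and 0.290 CPM.

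Apex1 was the gene nearest to a call. It was at 45.5, 47.1 and 59.7 CPM at 100 μg/mL and at 46.4, 47.2 and 57.7 CPM at 300 μg/mL, below all 3 senescent samples. The log2 difference was −0.76 ± 0.26 SE (edgeR adjusted p = 0.124) and −0.77 ± 0.26 SE (edgeR adjusted p = 0.161). Without senescent mouse 6 it was −0.20 and −0.30. By TPM the samples overlapped, at 98.6 to 164 in senescent MEFs, 102 to 130 at 100 μg/mL and 90.6 to 124 at 300 μg/mL.

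Msh6 and Parp1 had the largest positive differences among the strand-break, MutS and MutL genes at 100 μg/mL, without passing. Msh6 was at 16.2, 15.8 and 10.8 CPM, above all 3 senescent samples (log2 1.10, 95% interval −0.09 to 2.28, edgeR adjusted p = 0.292), and at 4.26, 13.6 and 13.02 CPM at 300 μg/mL, where mouse 4 was lower than any senescent sample. Parp1 was at 12.7, 12.8 and 8.51 CPM and at 6.63, 11.2 and 9.12 CPM, overlapping the senescent samples at each dose (log2 0.71 and 0.37). By TPM its treated samples lay above the senescent ones, a difference that was not tested. The TPM ranges were 4.06 to 7.54 in senescent MEFs, 8.35 to 20.93 at 100 μg/mL and 13.15 to 17.14 at 300 μg/mL. These values also depend on the mean transcript length that RSEM gave Parp1. That length was 1361 to 2903 bases in senescent MEFs, 902 to 3125 at 100 μg/mL and 1002 to 1412 at 300 μg/mL. Polb was at 11.8, 13.9 and 6.82 CPM and at 5.20, 11.2 and 9.17 CPM. The other 16 genes had log2 differences from −0.48 (Apex2 and Nthl1) to 1.05 (Neil2) at 100 μg/mL and from −0.47 (Mpg) to 1.33 (Neil2) at 300 μg/mL, and Neil2 had 17 counts in the senescent samples against 38 and 41 in the treated ones. Among the partner genes, Rpa1, a subunit of the single-strand binding protein RPA, fell from 141 ± 27.2 CPM in senescent MEFs to 63.2 ± 7.81 CPM at 100 μg/mL (log2 −1.16 ± 0.18 SE, edgeR adjusted p = 0.00542) and 67.5 ± 2.68 CPM at 300 μg/mL (log2 −1.07 ± 0.18 SE, edgeR adjusted p = 0.0103). Rfc5, a subunit of the clamp loader, fell at 100 μg/mL, from 42.9 ± 18.4 to 15.1 ± 3.94 CPM (log2 −1.51 ± 0.31 SE, edgeR adjusted p = 0.0178). Of the 28, 2 passed as lower at 100 μg/mL and 1 at 300 μg/mL, against 2.89% and 1.12% of all genes. None of the 28 passed as higher, against 1.14% and 0.778% of all genes, while 9 and 8 lay above 0.

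The doses did not separate for any of the 29 genes. At 300 against 100 μg/mL, 0 passed with edgeR, against 0% of all genes higher and 0.00665% lower, 0 with DESeq2, against 0.00666%, and 0 at an unadjusted p under 0.05, against 0.625%.

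Treated senescent MEFs were also compared with control MEFs. These comparisons share the control samples with each other and with the senescence comparison, so their calls are not independent of it. At 100 μg/mL 12 genes were lower and 0 higher, against 14.4% of all genes lower and 12.2% higher. The 12 were the 7 genes lower in senescence, Apex1, Apex2, Xrcc1, Parp2 and Msh3. At 300 μg/mL 9 were lower and 1 higher, against 12% lower and 12.4% higher: the same 7, Apex1 and Neil3 were lower, and Mlh3 was the one that was higher. Mlh3 was at 33.1, 33.2 and 48.6 CPM at 100 μg/mL and at 42.9, 42.6 and 44.0 CPM at 300 μg/mL, above all controls at each dose. Its call at 300 μg/mL (log2 1.04 ± 0.31 SE, edgeR adjusted p = 0.0257) stood in 7 of 12 fits with 1 sample left out and was lost without control mouse 4 or 5 or any 1 of the 300 μg/mL samples (edgeR adjusted p up to 0.0760). Apex1 was 2.28-fold lower than control at 100 μg/mL and 2.30-fold lower at 300 μg/mL. Neil3 was 17.4-fold lower at 300 μg/mL (log2 −4.12, edgeR adjusted p = 0.0375) with 9 counts in the 3 treated samples. With 1 sample left out its log2 difference ran from −5.72 to −3.56 and the call stood in 5 of 12 fits; it was lost without any 1 of the 3 controls or of mice 4 and 5 at either dose (edgeR adjusted p up to 0.125). Of the 5 genes lower at 100 μg/mL but not called in senescence, Apex1 passed in 12 of 12 such fits, Apex2 in 8, Parp2 in 6, Msh3 in 5 and Xrcc1 in 4; the calls of the last 4 were each lost without control mouse 4 or 5 or without mouse 4 or 5 at 100 μg/mL.

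The genes differed in how firmly they were measured, which was visible in both libraries of control mouse 5. Parp1, Polb and Msh6 were 1.68, 1.66 and 1.60 higher on the log2 CPM scale in library 5(2) than in library 5(1), while Mbd4, Msh3 and Pms2 were lower by −1.37, −1.05 and −0.86. Between these libraries of the same mouse, Parp1 went from 11.4 to 37.5 CPM and Msh6 from 6.19 to 19.7 CPM. Over all genes tested, the median difference between the libraries was 1.17 for 1460 genes with over 95% of their exonic bases in a single annotated transcript, 0.42 for 5044 genes with 50 to 95% and −0.13 for 8492 genes with under 50%. Of the 29 genes, 9 lay in the middle class, Parp1, Polb and Msh6 among them, and 20 in the last. Across the 29 genes the share and the library difference had a Pearson r of 0.50 (Spearman rho 0.41, n = 29 genes of the same 2 libraries, given as a description). Pold4, Lig3 and Tdg varied least among the control mice, at 1.02-, 1.05- and 1.09-fold between the highest and the lowest, and Neil1, Parp1 and Msh6 most, at 9.55-, 6.41- and 5.73-fold. Over the 13 libraries, the median log2 deviation of the genes with over 95% in a single transcript from their own mean was lowest in control mouse 6, at −0.86, and highest in mouse 5 at 100 μg/mL, at 0.86; for genes with 50 to 95% it was −0.40 and 0.38 in these libraries. Control mouse 6 held the lowest control values of Parp1, Polb and Msh6 (5.36, 4.14 and 4.09 CPM), and mouse 5 at 100 μg/mL held 12.8, 13.9 and 15.8 CPM of them. With offsets for single-transcript share, length and GC, the senescent difference of Parp1 was −1.51 (edgeR adjusted p = 0.0454; −1.38 and 0.0922 with the mouse block) and that of Msh6 −0.81 (edgeR adjusted p = 0.248). With library 5(1) alone for control mouse 5, Parp1 was at −1.32 (edgeR adjusted p = 0.154) and Msh6 at −0.77 (0.445), and with library 5(2) alone at −1.92 (0.0585) and −1.26 (0.196).

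**Figure D4:**
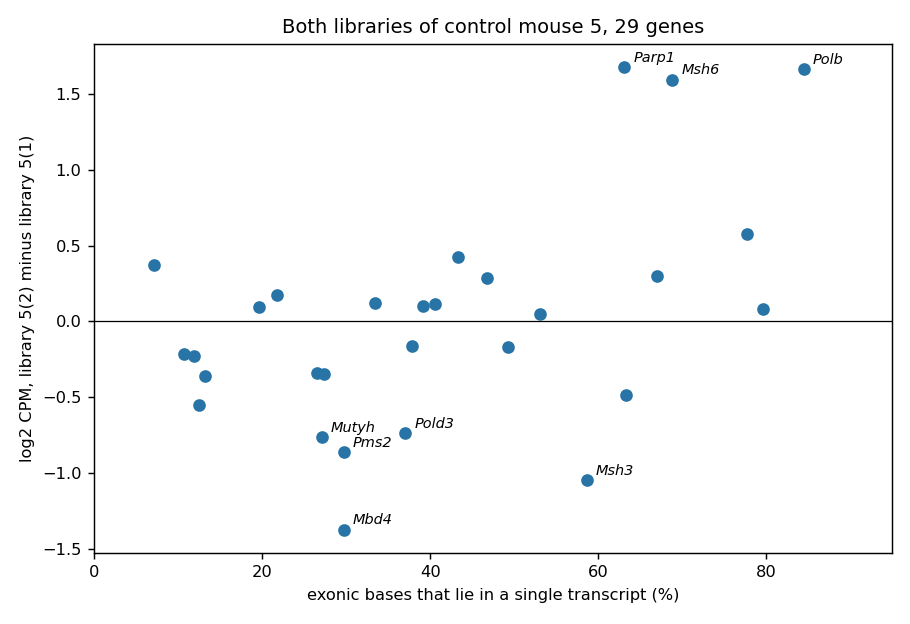
Log2 CPM of library 5(2) minus library 5(1) of control mouse 5 for the 29 genes, against the share of their exonic bases that lies in a single annotated transcript. Parp1, Polb and Msh6 lie highest, at 1.60 to 1.68.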

How the data were processed

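Total RNA of the MEFs was sequenced from stranded libraries. Per the labels, the authors aligned reads with STAR 2.7.11b to GRCm39 and quantified genes with RSEM 1.3.1. The deposited expected counts are not normalized; the authors also deposited TPM values, normalized for length and depth, and RSEM's mean transcript lengths, both used as descriptions. Whether counting used strand is not given in the sources used here.

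Expected counts were rounded, and libraries 5(1) and 5(2) were summed. Genes were filtered with filterByExpr (minimum count 10, total 15), leaving 15034. Comparisons used the quasi-likelihood test of edgeR 4.0.16 under R 4.3.3 (TMM, 1 fit over 4 groups, Benjamini-Hochberg; passing means an adjusted p under 0.05). CPM use TMM-scaled library sizes. Intervals of 95% use the same fit. DESeq2 1.42.0 was an alternative. Genes were named, with coordinates, from the GENCODE annotation of GRCm39. The single-transcript share is the percentage of a gene's exonic bases found in only 1 annotated transcript, counting transcripts of any gene on either strand. Exons of overlapping genes therefore lower it.

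The genes and lists were chosen with earlier results of these data known. All 29 genes are named; values in every sample are given for those that passed in senescence and for Neil3, Msh6, Parp1 and Polb, and for Apex1, Pold4 and Mlh3, chosen after their values were seen.

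The main test has no mouse term. The labels name the mouse, so the mouse as a block was an alternative; deviations of mice with the same number from the group means correlated at a median of −0.00627 over 18 pairs (−0.204 to 0.425), 8 of them over 0.1. The paper describes 3 independent biological replicates in each group. How cultures that share a mouse number relate between conditions is not stated. The p-values measure the spread between these samples, part of which may be technical. Alternatives covered the tool, scaling, filters, control mouse 5, the mouse as a block, offsets for transcript structure, length and GC, and each sample left out.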

Additional observations from a re-analysis of the deposited data

How the results depend on the processing

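Among the 29 genes, Ung, Tdg, Pold1, Pold2 and Pold3 fell in senescence in all 23 alternatives with a test per gene, Pms2 in 18 and Lig3 in 13, and none of the calls changed direction. The count of 7 ranged from 5 to 12 over 24 alternatives: it was 12 with DESeq2, 11 with offsets for single-transcript share, length and GC, and 5 to 9 with 1 sample left out; the cause was not tested. The median log2 change of −0.86 was −0.77 with library 5(1) alone, −0.76 with the offsets, −0.74 with the offsets and the mouse as a replicate block, and −0.91 to −0.59 with 1 sample left out. With the mouse as a replicate block the count was 7, and the block moved no other count by over 1.5 times. At each dose against senescent MEFs, and between the doses, the count was 0 in all 24 alternatives. The median with 1 sample left out ran from −0.235 to 0.0715 at 100 μg/mL. Its sign was opposite to that over all samples (−0.14) without senescent mouse 5 or 6 or any control. In those fits the median over all genes tested, −0.0187 over all samples, was 0.137 to 0.166, above that of the 29 genes. At 300 μg/mL the median of the 29 genes ran from −0.0666, without mouse 4 of that dose, to 0.127, without senescent mouse 6. It was 0.0104 over all samples and −0.0117 with the mouse block. Between the doses it ran from −0.0557 to 0.256, below 0 without mouse 4 of the higher dose. Against control at 100 μg/mL, the count of 12 was 7 without control mouse 4 or control mouse 5 and 7 to 13 with any sample left out, and the median of −0.86 was −0.69 with the offsets, −0.66 with the offsets and the block, and −1.001 to −0.53 with 1 sample left out. At 300 μg/mL against control, the count of 10 ran from 7 to 14, and the median from −0.97, without mouse 4 of that dose, to −0.601 with 1 sample left out; it was −0.5595 with libraries 5(1) and 5(2) separate, −0.5961 with the offsets and −0.5804 with the offsets and the block. Apex1 at 100 μg/mL against senescent MEFs was −0.23 with the offsets in place of −0.76. Of 3241 gene comparisons under the alternatives that were not called, 274 changed sign. Neil2 and Neil3 had 11 to 41 and 9 to 189 counts per condition.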

Other observations

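RSEM's TPM and the counts gave different pictures of some genes, among them Parp2, an enzyme of strand-break signalling. In senescent mouse 4 its TPM was 81.1, against 9.69 and 7.71 in senescent mice 5 and 6, while its expected counts in these libraries were 376, 243 and 364. The mean transcript length that RSEM gave for that library was 439 bases, against 1665 and 2022 in the other senescent libraries. The mean senescent TPM of Parp2, 32.8 ± 41.8 (SD, n = 3), thus rested on 1 library, and its rank went from 8 in control to 3 in senescent MEFs although its CPM was lower in 3 of 3 mice. The RSEM lengths of Parp1 and Msh6 in control mouse 5 were 1051 and 1060 bases in library 5(1) and 2897 and 2599 bases in library 5(2). Over all libraries those of Parp1 ran from 902 to 3125 bases.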
